A study of Homo sapiens with 6 samples.

Results

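The human genes *ZNF500* to *ZNF899* encode, for the most part, C2H2 zinc finger proteins that bind DNA, and this group was taken from the count table by symbol, as ZNF followed only by a number from 500 to 899, with at least 10 counts in each of the 6 libraries. The table of 26485 genes held 242 such symbols, and 214 of them met the count minimum. RNA-seq was performed on 3 HEK293 cultures in which the long noncoding RNA *HSALNG0134318* of 22q11.2 was silenced and on 3 control cultures, to ask which genes respond to its loss. Silencing was by transient transfection with a Smart Silencer, in which small interfering RNAs are combined with antisense oligonucleotides, delivered with Lipofectamine RNAiMAX. The controls carry the label NC and the genotype WT, and the text of the study does not say with what they were transfected. HEK293 is a line of human embryonic kidney cells, no other treatment is named for either group, and all 6 cultures come from this 1 line. The series describes the 3 cultures of each group as biological replicates.

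In a C2H2 finger, a pair of cysteines and a pair of histidines hold a zinc ion, and consecutive fingers in a row contact consecutive bases of DNA. The largest subgroup also carries a KRAB domain at the N-terminus, which binds *TRIM28* (KAP1). *TRIM28* in turn brings the histone methyltransferase *SETDB1*, HP1 proteins and the NuRD complex to the bound site, and many KRAB proteins keep transposable elements silent in this way. KRAB zinc finger genes arose by repeated duplication, and they lie in clusters of similar neighbours, most of them on chromosome 19.

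These features were read from the reference, and not from the counts. Of the 214 genes, 213 were matched to GENCODE release 44, and 212 of these are annotated as protein coding. The remaining matched gene, *ZNF788*, is annotated as a pseudogene, and *ZNF720* had no match. By a profile of allowed residues, 138 proteins held a KRAB match and 74 held none, and *ZNF500* held the only match to a SCAN domain, a dimerization module. At least 1 C2H2 finger was found in 208 proteins, with a median of 10 fingers, and the pattern found none in *ZNF503*, *ZNF703*, *ZNF839* and *ZNF862*. Chromosome 19 held 113 of the genes (52.8%), and chromosomes 16, 7 and 1 followed with 15, 13 and 12.

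The sequence that most of these genes share is the short linker that joins neighbouring fingers, 5 residues of threonine, glycine, glutamate, lysine and proline. At least 1 such linker was found in 154 of the proteins. Further linkers of the same protein were left out, and the coding bases of only 1 linker a gene were read, for 146 genes. These 15 bases were spelled in 58 different ways, and the most common spelling, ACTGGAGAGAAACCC, was found in 15 of the genes. A stretch from 7 of the genes with the clearest differences is shown because it lets the repeated motif be seen at the level at which reads are assigned to a gene. The 15 linker bases are in capitals, with 6 coding bases on either side, 5′ to 3′ on the strand of the gene.
ZNF629: acgcacACCGGCGAGAAGCCCtacaag
ZNF616: attcatACCGGTGAAAAACCTtacaaa
ZNF664: gttcatACAGGTGAGAAACCGtatgtc
ZNF606: actcatACTGGAGAAAAACCCtatgaa
ZNF845: cttcatACTGGAGAGAAACCTtacaaa
ZNF544: acacacACTGGAGAAAAGCCCttcgaa
ZNF711: acccatACTGGTGAGAAGCCAtatcag
All 7 stretches lie in coding exons of the GRCh38 build. They are at chr16:30783707-30783733 (minus strand, *ZNF629*), chr19:52116270-52116296 (minus, *ZNF616*), chr12:124012466-124012492 (plus, *ZNF664*), chr19:57979393-57979419 (minus, *ZNF606*), chr19:53351717-53351743 (plus, *ZNF845*), chr19:58261723-58261749 (plus, *ZNF544*) and chrX:85271118-85271144 (plus, *ZNF711*). Although all 7 encode the same linker, no 2 of them spell it with the same bases. *ZNF845* held 17 linkers, *ZNF544* held 12 and *ZNF711* held 1.

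The libraries held between 13900965 and 16869948 counts. Kidney and neuronal-type markers of HEK293 (*PAX2*, *LHX1*, *SALL1*, *EYA1*, *GATA3*, *NEFM* and *NEFL*) were detected, with mean levels from 154 normalized counts for *PAX2* to 2253 for *NEFL*. The blood, endothelial and hepatocyte markers *PTPRC*, *PECAM1* and *ALB* did not exceed 5.22 normalized counts in any library, while the muscle marker *DES* lay between 5.22 and 19.6 and the fibroblast marker *COL1A1* between 587 and 750. *HSALNG0134318* is not listed in the table, so that its own silencing was not checked. A normalized count is a count divided by the effective library size and scaled to the mean of the 6 libraries. Counts of bulk RNA do not tell fewer cells with a transcript from less of it per cell.

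More of the *ZNF500* to *ZNF899* genes were higher after silencing than lower. Of the 214 genes, 28 (13.1%) were called higher, where 5.40% of all 14877 genes tested were, and 3 (1.40%) were called lower, where 4.64% of all genes were. A call is an adjusted p under 0.05 from the quasi-likelihood F test of edgeR with Benjamini-Hochberg adjustment over all genes tested, whatever the fold change, and is given below as the edgeR adjusted p. The median log2 fold change, knockdown minus control, was 0.14 over the 214 genes and -0.02 over all genes tested. A log2 fold change above 0 was found in 150 of them (70.1%), and in 47.3% of all genes. In 53 of them (24.8%) all 3 knockdown cultures lay above all 3 control cultures, compared with 16.4% of all genes, and in 15 of them (7.01%) all 3 lay below, compared with 15.8%. Together these were 68 genes (31.8%), beside 32.2% of all genes. The 31 called genes were all among these. The 183 genes not called had log2 fold changes from -0.73 for *ZNF709* to 0.87 for *ZNF572*.

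The number of calls depended on single cultures. Of the *ZNF500* to *ZNF899* genes, 16, 14 and 13 were called higher without knockdown replicate 1, 2 and 3, and 18, 37 and 31 without control replicate 1, 2 and 3. The numbers of all genes called higher went at the same time from 804 to 341, 289 and 297, and to 375, 1274 and 1087. The number of the group called lower was 0, 2 and 2 without knockdown replicate 1, 2 and 3, and 1, 7 and 6 without control replicate 1, 2 and 3. For all genes the number called lower went from 690 to 252, 247 and 233, and to 294, 1238 and 994. In the 14 alternative settings, 12 of the 31 called genes were called every time, and the median log2 fold change of the 214 genes stayed between 0.11 and 0.18.

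Genes with a KRAB match and genes without one were both represented among the higher ones. Of the 138 genes with a KRAB match, 19 (13.8%) were called higher and 0 lower by edgeR, and the median log2 fold change was 0.18. At an unadjusted p under 0.05, 35 of them were higher and 4 lower, compared with 13.1% and 13.8% of all genes, and DESeq2 called 1 of them lower and limma-voom 0. The number called higher was 10 without each of the knockdown replicates in turn and 12 without control replicate 1. Of the 74 genes without a KRAB match, 9 (12.2%) were called higher and 3 (4.05%) lower, with a median of 0.08. By comparison, edgeR called 5.40% of all genes tested higher and 4.64% lower. By location, 15 of 94 genes with a KRAB match on chromosome 19 and 4 of 44 on other chromosomes were called higher. So were 1 of 18 genes without a KRAB match on chromosome 19 and 8 of 56 elsewhere. No test of the difference between these subgroups was made.

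**Figure D1:**
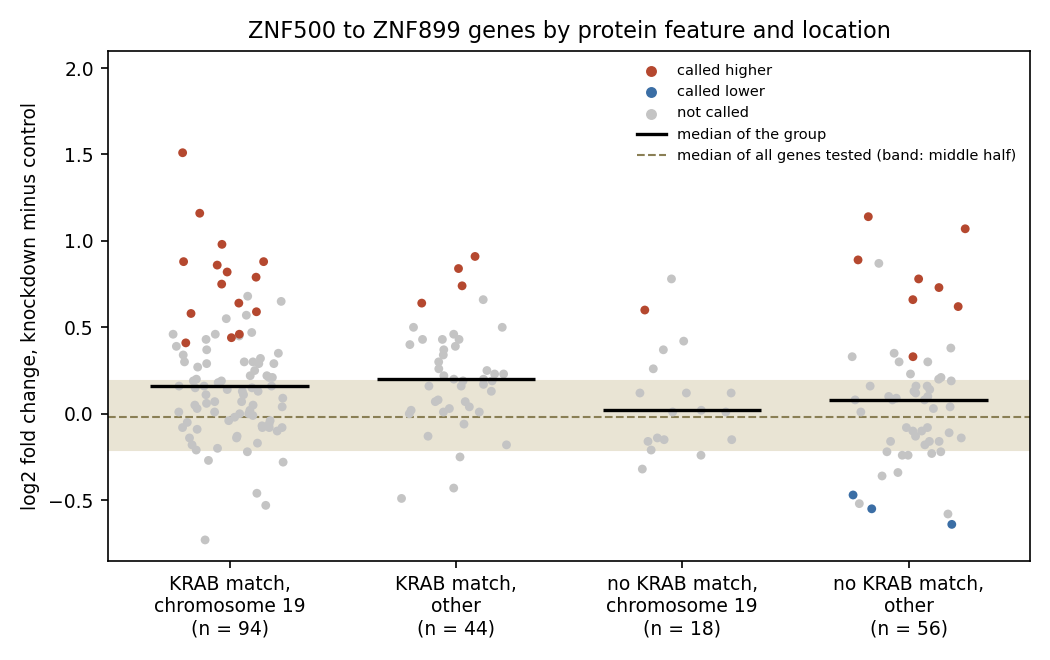
Log2 fold change (knockdown minus control) of the *ZNF500* to *ZNF899* genes with a protein read from the reference, by KRAB match and chromosome, 1 point a gene, with the median of each group as a black line and the median (-0.02) and quartiles of all genes tested as a dashed line and band. The medians are 0.16, 0.20, 0.02 and 0.08 from left to right, and the 3 genes called lower all have no KRAB match and lie outside chromosome 19.

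*ZNF616* had the largest fold change of the 214 genes. It encodes a KRAB protein with 22 fingers and lies at chr19:52113091-52139938 on the minus strand. The knockdown cultures held 300, 283 and 278 normalized counts, and the controls held 118, 91.9 and 91.6. The lowest knockdown value was more than double the highest control value. The log2 fold change was 1.51 (SE, standard error, 0.15, edgeR adjusted p 0.00024). Its canonical transcript shares 0.77% of its 50-base words with other annotated transcripts, and another annotated gene overlaps *ZNF616* on the same strand.

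*ZNF606*, a KRAB gene with 13 fingers at chr19:57977076-58003349 (minus strand), was at 162, 171 and 200 normalized counts after silencing and at 68.4, 78.5 and 91.6 in the controls. Its log2 fold change was 1.16 (SE 0.18, edgeR adjusted p 0.0026). Groups did not overlap, and none of its 50-base words was shared. *ZNF589*, a KRAB gene on chromosome 3 named for its expression in blood stem cells, was at 349, 329 and 380 normalized counts in the knockdown cultures and at 191, 191 and 180 in the controls. The 3 control values lay close together, and the log2 fold change was 0.91 (SE 0.13, edgeR adjusted p 0.0015).

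*ZNF845* and *ZNF765* are KRAB genes of the same region of chromosome 19, and both rose with a log2 fold change of 0.88. *ZNF845*, with 26 fingers, was at 298, 304 and 309 normalized counts after silencing and at 166, 144 and 186 in the controls (edgeR adjusted p 0.0031). *ZNF765*, with 8 fingers, was at 239, 262 and 234 and at 133, 118 and 150 (adjusted p of 0.0045). For both, the groups were well apart. Both share part of their sequence with *ZNF813*, their neighbour, with 7.11% of the 50-base words of *ZNF845* and 9.90% of those of *ZNF765* found in another transcript. *ZNF813* rose as well, from 77.0 ± 10.6 to 152 ± 8.28 normalized counts (SD, n = 3), and how the authors' counting treated reads that fit both genes is not given in the sources used here.

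*ZNF544* and *ZNF680* complete the KRAB genes among the 10 higher genes with the smallest p. *ZNF544*, at chr19:58228594-58277495 (plus strand), was at 668, 647 and 685 normalized counts after silencing and at 438, 394 and 452 in the controls, a log2 fold change of 0.64 (edgeR adjusted p 0.0042). *ZNF680*, on chromosome 7, was at 433, 596 and 563 and at 302, 259 and 329, a log2 fold change of 0.84 (edgeR adjusted p 0.0057). Groups did not overlap for either gene, although knockdown replicate 1 stood below the other 2 knockdown cultures for *ZNF680*. Of the 50-base words of *ZNF544*, 11.56% are found in other transcripts, and other annotated genes overlap it on the same strand.

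Among genes without a KRAB match, *ZNF629*, *ZNF664* and *ZNF618* were the higher ones with the smallest p. *ZNF629*, at chr16:30778456-30787205 (minus strand), encodes 19 fingers and had the smallest p of all 214 genes. It was at 1665, 1694 and 1776 normalized counts in the knockdown cultures and at 864, 727 and 862 in the controls. The knockdown cultures held about double the control level, with a log2 fold change of 1.07 (SE 0.10, edgeR adjusted p 0.00015), and no 50-base word of the transcript was shared with another.

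*ZNF664*, at chr12:123971845-124015439 (plus strand), was one of the most abundant genes of the group. It was at 5278, 5222 and 5130 normalized counts after silencing and at 2273, 1938 and 2896 in the controls. The control cultures differed more among themselves than the knockdown cultures did, and the groups were far apart. The log2 fold change was 1.14 (SE 0.13, edgeR adjusted p 0.00042). A gene that runs on into *RFLNA* overlaps it on the same strand, and 7.53% of the 50-base words of *ZNF664* are found in other transcripts, so its counts may hold reads of that gene. *ZNF618*, on chromosome 9, encodes a protein that works with UHRF2 at hydroxymethylated DNA. It was at 1320, 1412 and 1390 normalized counts and at 894, 765 and 958, with no overlap and a log2 fold change of 0.66 (SE 0.10, edgeR adjusted p 0.0030).

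These 10 genes were called under all 14 alternative settings. The other 18 genes called higher had log2 fold changes from 0.33 to 0.98, and only *ZNF813* and *ZNF764* among them were called in every setting. Of these 18, *ZNF536* (0.60), a regulator of neuronal differentiation, *ZNF594* (0.78), *ZNF678* (0.73) and *ZNF721* (0.89) had no KRAB match, and nor did *ZNF592* and *ZNF622*, described with the genes of other function. *ZNF791* was closest to the threshold, at an edgeR adjusted p 0.0484.

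**Figure D2:**
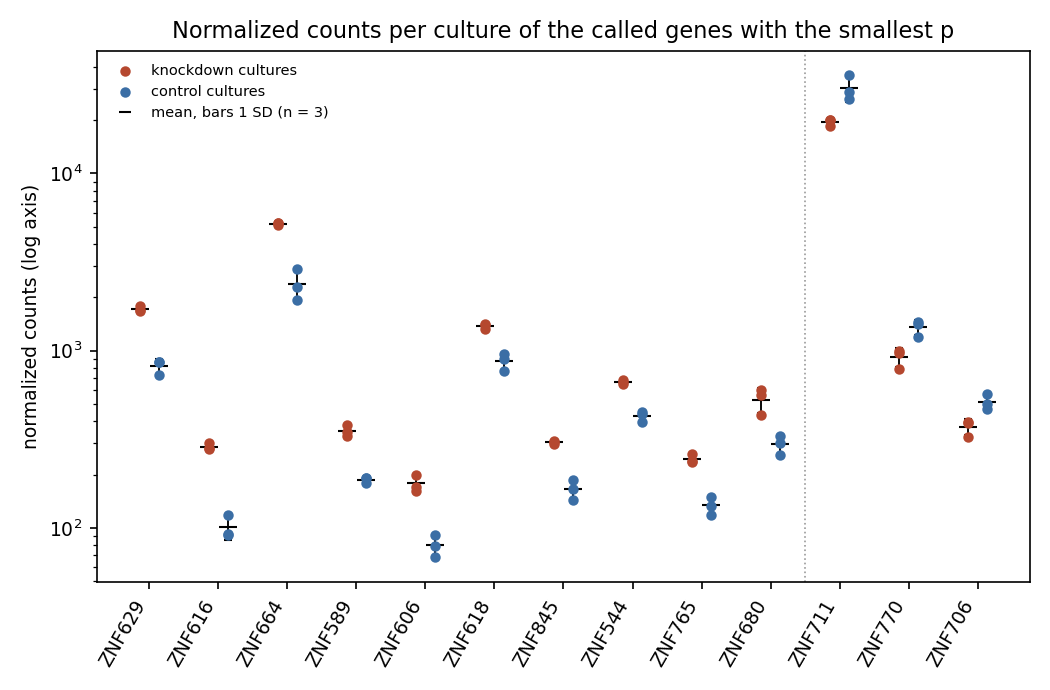
Normalized counts (log axis) in each of the 6 cultures for the 10 genes called higher with the smallest p and, right of the dotted line, the 3 genes called lower, with the mean and 1 SD (n = 3 a group). In none of the 13 genes do the knockdown points overlap the control points, and *ZNF711* lies far above the others in both groups.

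On chromosome 19 the higher genes were spread over several clusters. When genes whose starts lay within 0.5 Mb of each other were joined, 91 of the 113 genes fell into 6 clusters of at least 5, and the median log2 fold change was above 0 in all 6. The largest, at chr19:51804816-53496255, held 25 of the genes, with a median of 0.29. In this cluster *ZNF616*, *ZNF836*, *ZNF845*, *ZNF765*, *ZNF761* and *ZNF813* were called higher. The cultures did not overlap in 12 genes that were higher and 1 that was lower. Among all genes tested, 5.40% were called higher, and 16.4% were higher and 15.8% lower without overlap. Log2 fold changes in the cluster ran from -0.46 to 1.51. Neighbours therefore did not all move together. The cluster at chr19:57240632-58431736 held 21 genes with a median of 0.21. Of these, 19 had a log2 fold change above 0, and *ZNF671*, *ZNF776*, *ZNF606* and *ZNF544* were called higher.

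The remaining clusters held fewer calls. The 12 genes at chr19:11483427-12633840 had a median of 0.04 and 1 call (*ZNF791*), the 16 genes at chr19:36182276-37817300 had a median of 0.11 and 1 call (*ZNF793*), and the 6 genes at chr19:8806170-9793180 had a median of 0.09 and 1 call (*ZNF558*). The 11 genes at chr19:55476617-56478065, with a median of 0.01, held no called gene. Over chromosome 19 as a whole, 16 of the 113 genes (14.2%) were called higher and 0 lower, with 29 higher and 3 lower at an unadjusted p under 0.05 and 1 lower by DESeq2 (0 by limma-voom). Of all 1035 genes of chromosome 19 that were tested, these included, 8.89% were called higher and 1.64% lower. Over all chromosomes, edgeR called 5.40% of the genes tested higher and 4.64% lower. At an unadjusted p under 0.05, 13.1% of all genes tested were higher and 13.8% lower.

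*ZNF711*, *ZNF770* and *ZNF706* were the genes called lower, and none has a KRAB match. *ZNF711*, at chrX:85243991-85273362 (plus strand), binds gene promoters together with the histone demethylase PHF8, and its loss causes X-linked intellectual disability. It was at 18595, 19931 and 20043 normalized counts after silencing and at 36009, 29002 and 26247 in the controls. Every knockdown culture lay below every control culture, although the controls varied widely. The log2 fold change was -0.64 (SE 0.12, edgeR adjusted p 0.0070), and the adjusted p was 0.0503 without knockdown replicate 1.

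Per length, *ZNF711* was the most abundant of the 214 genes, with a mean level of 364 CPM per kb of transcript (CPM being counts scaled to a common library total), and *ZNF703* followed with 70.6. It made up 16.8% to 16.9% of the summed normalized counts of the 214 genes in the knockdown cultures and 23.4% to 28.6% in the controls. The sum over the 214 genes overlapped between the groups, with 109759 to 118946 after silencing and 112204 to 125832 in the controls. Without *ZNF711* the sum was 91164 to 99012 after silencing and 83474 to 89823 in the controls, with no overlap. This sum leaves out a gene called lower and holds the 28 called higher. Those 28 summed to 20252 to 21383 after silencing and 10843 to 13464 in the controls. The 28 were picked by their calls on these same counts and each was without overlap, so their sums had to lie apart.

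*ZNF770*, at chr15:34978341-34988287 (minus strand), was at 790, 1001 and 975 normalized counts after silencing and at 1442, 1200 and 1422 in the controls. The groups did not overlap, and the log2 fold change was -0.55 (SE 0.12, edgeR adjusted p 0.013). The adjusted p was 0.065 without knockdown replicate 1 and 0.061 without control replicate 1.

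*ZNF706*, at chr8:101177878-101206193 (minus strand), encodes a protein of 76 residues with 1 finger, known for its part in the exit of embryonic stem cells from self-renewal. It was at 392, 394 and 327 normalized counts after silencing and at 469, 569 and 503 in the controls. Its log2 fold change was -0.47 (SE 0.13, edgeR adjusted p 0.039), and it was called in 8 of the 14 alternatives. Of the 6 losses of the call, 5 were without each knockdown replicate in turn (adjusted p of 0.092, 0.11 and 0.20), without control replicate 1 (0.061) and with correction for GC content and length (0.065), and the other was in the fit blocked by replicate number.

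A list of 14 of the genes with known roles other than KRAB repression was examined, of which 2 (14.3%) were called higher and 1 (7.14%), *ZNF711*, lower, beside 5.40% and 4.64% of all genes. With so few genes these shares are given only as a description. *ZNF592*, *ZNF532* and *ZNF687* form a complex with the chromatin reader ZMYND8. *ZNF592* was at 2145, 2272 and 2176 normalized counts after silencing and at 1756, 1690 and 1812 in the controls, with a log2 fold change of 0.33 (SE 0.08, edgeR adjusted p 0.029). Groups did not overlap, but the call was lost in 5 of the 14 alternatives, which were those without each knockdown replicate in turn (adjusted p of 0.085, 0.16 and 0.13), without control replicate 1 (0.075), and in the fit blocked by replicate number. Its partners were not called, with log2 fold changes of 0.16 for *ZNF532* and -0.14 for *ZNF687*.

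*ZNF622*, *ZNF593* and *ZNF598* act on ribosomes, the first 2 in the maturation of the large subunit and *ZNF598* as the ubiquitin ligase that marks collided ribosomes. *ZNF622* was at 937, 837 and 809 normalized counts after silencing and at 494, 474 and 714 in the controls, with a log2 fold change of 0.62 (SE 0.15, edgeR adjusted p 0.026). Control replicate 3 stood nearest to the knockdown cultures. The call was lost without each knockdown replicate in turn (adjusted p of 0.12, 0.079 and 0.072) and without control replicate 1 (0.11). *ZNF593* was at 211, 187 and 189 and at 138, 365 and 158, so that control replicate 2 alone stood above all knockdown cultures. Its log2 fold change was -0.18, and 0.40 without that culture, not called in either case (adjusted p of 0.78 and 0.092 from edgeR). *ZNF598* had a log2 fold change of 0.20 and was not called.

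The other 7 genes of the list were not called by edgeR. The related corepressors *ZNF503* and *ZNF703* had log2 fold changes of 0.13 and -0.24, *ZNF521*, a regulator of blood and neural progenitors, had -0.16, and *ZNF644*, a partner of the histone methyltransferases G9a and GLP, had -0.08. *ZNF638*, which takes part in silencing of unintegrated viral DNA, had -0.22, *ZNF830*, a splicing factor, had -0.23, and *ZNF746* (PARIS), a KRAB protein degraded through parkin, had 0.02. For *ZNF521*, *ZNF638*, *ZNF687* and *ZNF830* all 3 knockdown values lay below the controls, but none of the 4 differences passed the test. With *ZNF711*, 5 of the 14 genes of the list (35.7%) were lower without overlap, and 2 (14.3%) were higher. Among all genes tested these shares were 15.8% and 16.4%.

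The cofactors of KRAB repression were read from a list of 21 genes, all of them tested, of which 2 (9.52%) were called higher and 0 lower by edgeR, beside 5.40% and 4.64% of all genes. At an unadjusted p under 0.05, 5 were higher and 3 lower, where 13.1% and 13.8% of all genes were. The median log2 fold change was 0.03. *TRIM28*, the protein that binds KRAB, was at 6875, 6173 and 6234 normalized counts after silencing and at 6204, 9005 and 6654 in the controls. Control replicate 2 stood above the other 5 cultures, which overlapped, and the log2 fold change of -0.18 did not pass the test (edgeR adjusted p 0.41). *SETDB1*, with 0.16, was not called either.

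*HDAC1* and *CHD3*, subunits of the NuRD complex, were the called cofactors. *HDAC1*, a histone deacetylase, was at 3825, 3552 and 3450 normalized counts after silencing and at 1950, 1964 and 2432 in the controls, with no overlap, a log2 fold change of 0.77 (SE 0.10, edgeR adjusted p 0.0013) and a call in all 14 alternatives. *CHD3*, a chromatin remodeller, had a log2 fold change of 0.53 (SE 0.10, edgeR adjusted p 0.0086, and 0.0504 without knockdown replicate 1). Their paralogs *HDAC2* and *CHD4* had log2 fold changes of -0.03 and 0.05. *CBX3*, an HP1 protein, and *UHRF1*, which guides DNA methylation, each had -0.29 and just missed the threshold, with adjusted p of 0.0519 and 0.0506. DESeq2 called both lower, limma-voom called *UHRF1* lower, and DESeq2 called *SUMO2* (0.32, edgeR adjusted p 0.063) higher.

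The level of the group as a whole was also read culture by culture. For each culture, the median over the 214 genes of the log2 deviation from the mean of the 6 cultures was taken. It was -0.01, 0.11 and 0.11 in knockdown replicates 1, 2 and 3 and 0.02, -0.14 and -0.11 in control replicates 1, 2 and 3. Knockdown replicate 1 thus lay below control replicate 1, and the groups overlapped. The same was found for the KRAB genes, with -0.02, 0.14 and 0.14 after silencing and 0.04, -0.22 and -0.11 in the controls. In the 74 genes without a KRAB match, control replicate 2 (0.08) lay above all knockdown cultures (0.04 to 0.06).

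The cultures also differed by the GC content of transcripts, and those that were low at low GC content were not all of 1 group. At a GC content of 38.5%, genes deviated on average by -0.133 in knockdown replicate 1 and by -0.116 in control replicate 2, and by 0.104 to 0.114 in control replicates 3 and 1, on the log2 scale. The median transcript GC content was 42.8% over the 214 genes and 48.6% over all genes tested. Of the 126 genes of the group under 45% GC, 18 (14.3%) were called higher and 3 (2.38%) lower, where 3.61% and 7.12% of all genes under 45% GC were. Of the 87 at 45% or more, 10 (11.5%) were called higher and 0 lower by edgeR, with 18 higher and 2 lower at an unadjusted p under 0.05 and 1 lower by DESeq2 (0 by limma-voom). At any GC content, edgeR called 5.40% of all genes tested higher and 4.64% lower. With an unadjusted p under 0.05, 13.1% of all genes tested were higher and 13.8% lower. The shares of all genes at 45% or more were not taken. With GC content and length trends removed from each library, 45 of the *ZNF500* to *ZNF899* genes were called higher and 7 lower, beside 1395 and 1450 of all genes.

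**Figure D3:**
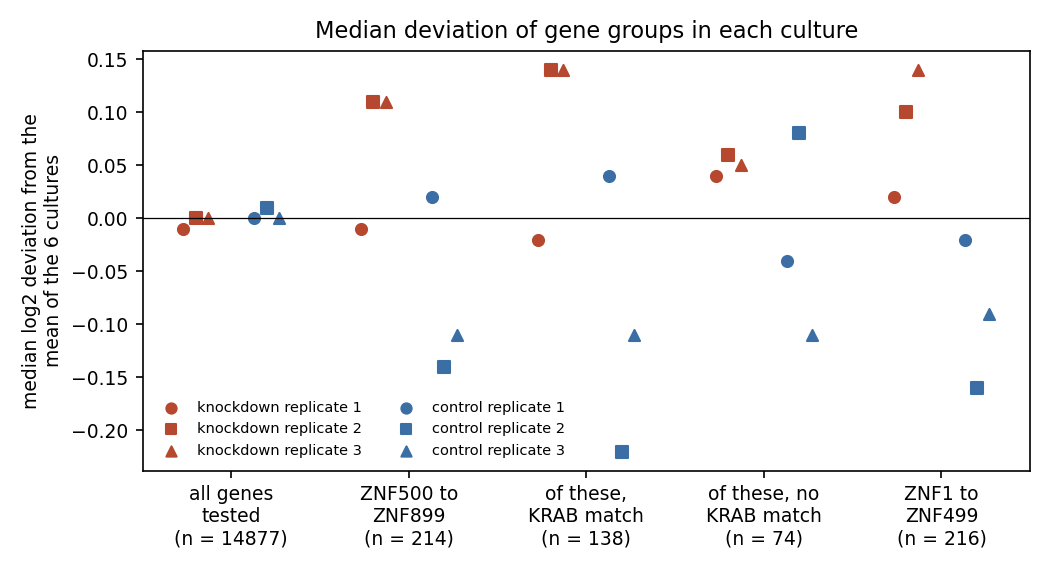
Median log2 deviation from the mean of the 6 cultures in each knockdown and control culture, for all 14877 genes tested, the 214 *ZNF500* to *ZNF899* genes, these split by KRAB match, and the 216 genes *ZNF1* to *ZNF499*. Knockdown replicate 1 (-0.01) lies below control replicate 1 (0.02) for the 214 genes, while the all-gene medians lie near 0.

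Sequence shared between genes was also compared with the calls. In 108 genes with under 1% of their 50-base words in other transcripts, 9 (8.33%) were called higher and 1 lower. In the 105 genes with 1% or more, 19 (18.1%) were called higher and 2 lower. Beside these, 5.40% of all genes tested were called higher and 4.64% lower. No called gene shared over 17.3% of its words, the value of *ZNF536*. The 15 genes that shared over 20%, with *ZNF788* (94.3%), *ZNF709* (92.3%), *ZNF564* (86.2%), *ZNF658* (70.4%) and *ZNF799* (47.7%) at the top, have uncertain counts. Whether reads placed on more than 1 gene have a part in these shares was not tested.

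The fold change was only weakly related to other properties. Across 212 genes, which are not independent replicates and share the same libraries, the log2 fold change had a Pearson correlation of 0.14 (Spearman 0.13) with the number of fingers, -0.09 (-0.08) with transcript GC content, 0.10 (0.08) with log2 transcript length and -0.08 (-0.11) with the log2 mean count. In genes with 0 to 4 fingers 3 of 26 were called higher, in those with 5 to 9 fingers 9 of 68, in those with 10 to 14 fingers 8 of 73 and in those with 15 or more 8 of 45. By level, 2 of 44 genes under 100 normalized counts (4.55%) were called higher, where counting error is largest. The numbers were 10 of 82 (12.2%) between 100 and 300 and 12 of 64 (18.8%) between 300 and 1000. Over 1000 it was 4 of 24 (16.7%). Of all genes tested, at any level or number of fingers, 5.40% were called higher, and their shares by level were not taken.

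The 216 genes *ZNF1* to *ZNF499* that met the same count minimum gave similar figures, with 31 (14.4%) called higher, 0 lower by edgeR and a median log2 fold change of 0.15. At an unadjusted p under 0.05, 63 of them were higher and 4 lower, beside 13.1% and 13.8% of all genes tested. DESeq2 and limma-voom called 0 of the 216 genes lower. In these, 25 of 140 genes with a KRAB match (17.9%) and 6 of 76 without (7.89%) were called higher. Among all genes tested, edgeR called 5.40% higher and 4.64% lower. The difference between the number ranges was not tested, and they share the same cultures.

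The count minimum left out 28 of the 242 symbols, 5 of them with no count in any culture. *ZNF541*, with a lowest count of 9, lay just outside, and it alone of the 28 was tested and was not called (log2 fold change of 0.49). *ZNF575*, *ZNF878* and *ZNF572* lay just inside with a lowest count of 10. Their log2 fold changes were -0.21, -0.53 and 0.87, and they were also the 3 genes with the lowest mean level of the group, from 15.4 to 20.3 normalized counts.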

How the data were processed

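Libraries were prepared with a stranded mRNA protocol per the labels. The authors checked reads with FastQC 0.11.9, trimmed them with Trim Galore 0.6.6, removed ribosomal RNA reads with SortMeRNA, aligned them with STAR 2.7.9a and counted them per gene with featureCounts 2.0.1, on hg38 according to the submitters' processing notes, and deposited raw counts without normalization. The paper's methods give other versions of STAR and featureCounts, and the gene annotation, strand and multi-mapping settings are not given in the sources used here.

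Counts of all 6 libraries (13900965 to 16869948) were filtered with filterByExpr, which kept 14877 genes, all 214 included, normalized with TMM and tested with the robust quasi-likelihood F test of edgeR 4.0.16 in R 4.3.3. P values were adjusted by Benjamini-Hochberg over all genes tested, and genes under 0.05 were called. The biological coefficient of variation was 12.4%, and the smallest two-sided p of an exact permutation test of 3 against 3 is 0.10. Fits were tested on simulated data.

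Positions and proteins came from GENCODE release 44 (GRCh38), which held 212 of the 214 symbols and 1 more through a RefSeq synonym. A KRAB match required 22 of 33 profile positions to hold an allowed residue, and a SCAN match 20 of 30. Only the protein of the canonical transcript was read, with no gap allowed in the profile, so some KRAB domains may have been missed. Shared sequence is the share of 50-base words of the canonical transcript found in another gene's canonical transcript.

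Described singly were the 10 called genes with the smallest p in each direction without overlap between groups, 14 genes with other known roles, 21 KRAB corepressors, and the most and least abundant genes and those near the count minimum. Other genes named with their cluster, call or shared sequence were picked after their values were seen. A marker gene of the cell line is not reported here. Members, lists and most alternatives were chosen with earlier results of these data known, and the counts of KRAB genes were added after seeing these results. Alternatives were DESeq2's size factors, library sizes alone, no filter, 10 counts in every library, DESeq2 1.42.0, limma-voom (limma 3.58.1), a replicate block, a loess correction (span 0.3) for GC content and length, known for 96.5% of the genes tested, and each culture left out.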

Additional observations from a re-analysis of the deposited data

How the results depend on the processing

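With GC content and length corrected, 7 of the *ZNF500* to *ZNF899* genes were called lower and 45 higher (3 and 28 without), 1450 and 1395 of all genes (690 and 804 without), and 3 and 32 KRAB genes (0 and 19 without). Without a filter, and with DESeq2, 5 genes of the group were lower, 1 of them a KRAB gene each time. With the replicate number as a block 1 KRAB gene was lower. Leaving out 1 culture gave 0 to 7 lower and 13 to 37 higher genes of the group, 233 to 1238 and 289 to 1274 of all genes, and 0 to 1 lower and 10 to 22 higher KRAB genes. Fewer cultures enter these fits, and the cause of the rises without control replicates 2 or 3 was not tested.

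Cultures with the same replicate number did not deviate together (r of -0.208, -0.11 and -0.044 for replicate numbers 1, 2 and 3). The labels also hold culture numbers, which are 1, 4 and 5 for knockdown replicates 1, 2 and 3 and 10, 11 and 1 for control replicates 1, 2 and 3. Culture number 1 is the only one found in both groups, in knockdown replicate 1 and control replicate 3, with an r of -0.009. Deviations were taken from the mean of each group of 3, so these r are not independent and cannot exclude a weak pairing. With the replicate block 24 genes of the group were higher and 3 lower, with 714 and 619 of all genes. The block ended the calls of *ZNF592* (adjusted p of 0.10 from edgeR) and *ZNF706* (0.057) and of no other gene described singly.

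Signs turned, with the cause not tested, for 7 named genes, of which none was called. With the GC correction *ZNF644* was at 0.02 and *HDAC2* at 0.01. Leaving out 1 culture gave log2 fold changes from -0.19 to 0.05 for *ZNF644* (the highest without knockdown replicate 1), -0.07 to 0.10 for *ZNF746* (below 0 without knockdown replicate 2 and, at -0.01, without control replicate 3) and -0.06 to 0.01 for *HDAC2* (above 0 without control replicate 3). Without control replicate 2 the signs of 4 genes turned, to 0.40 for *ZNF593* (range -0.43 to 0.40), -0.05 for *CBX5* (-0.05 to 0.11), -0.02 for *PPHLN1* (-0.02 to 0.14) and 0.05 for *UBE2M* (-0.48 to 0.05). Of 671 values of named genes under the alternatives, 621 kept their sign and their side of the threshold, 19 lost the call and 21 gained one. Low counts limit the 44 genes under 100 normalized counts, whose median standard error was 0.25 on the log2 scale, against 0.11 for the 24 genes over 1000.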
